A study of Mus musculus with 130 samples.

Results

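Nnt encodes nicotinamide nucleotide transhydrogenase, and its transcript was followed by symbol through liver RNA of 130 male mice. It is 1 gene of the 35711 gene identifiers in the table of the strain panel and of the 35274 in the table of the diet study. Of the panel's Ensembl identifiers, 2 carry the symbol Nnt, ENSMUSG00000025453 and ENSMUSG00000116207, and their counts were summed. In the diet table only the first of them is listed.

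The panel held 115 mice of 114 inbred strains fed chow for 4 weeks and then 2% carbonyl iron (20000 ppm) for 6 weeks. Each strain was 1 mouse, apart from 129X1/SvJ with 2. The diet study held 15 C57BL/6J mice, 3 on each of 5 diets. These were chow, sufficient iron (50 ppm), elevated iron (500 ppm), 2% carbonyl iron (20000 ppm), and 2% carbonyl iron with cellulose as the fibre source. Neither the age of the mice nor the feeding time of the diet study is given in the labels.

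The strains of the panel form families. The BXD strains are recombinant inbred lines of C57BL/6J and DBA/2J: each is a fixed mixture of both parents, so at any gene it carries the allele of one or the other. They were bred in rounds far apart in time. Here the early set is the 27 strains with the Ty laboratory code, of which 20 are numbered up to 32 (BXD1-32) and 7 from 33 to 42 (BXD33-42). The later set is the 29 strains with the Rww code. The 20 AXB/BXA strains come from A/J and C57BL/6J, the 4 BXH strains from C57BL/6J and C3H/HeJ, and the 3 CXB strains from BALB/cByJ and C57BL/6ByJ. C57BL/6J itself was 1 panel mouse. The other 30 inbred strains include 3 C57 relatives (C57BLKS/J, C57L/J and C58/J). With 1 mouse per strain, a strain's value cannot be told apart from that of its mouse, and every panel mouse was iron-loaded, so the panel holds no untreated level. Related strains (BXD48 and BXD48a, or AXB19, AXB19a and AXB19b) are not independent lines.

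The transhydrogenase sits in the inner mitochondrial membrane and uses the proton gradient to pass electrons from NADH to NADP+, which supplies the matrix with NADPH. Matrix NADPH feeds the glutathione and thioredoxin systems that remove peroxides, and the enzyme shares this task with the NADP-dependent isocitrate dehydrogenase and malic enzymes. C57BL/6J mice carry a spontaneous deletion of a run of internal coding exons of Nnt that arose within that colony, and C57 lines separated from it earlier keep the whole gene. These are matters of background and were not measured here.

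In the GENCODE M21 annotation of GRCm38, Nnt lies on the minus strand at chr13:119335448-119408997. That genome is itself the sequence of C57BL/6J, so its gene model is the one of the deleted allele. The main transcript, Nnt-202, has 17 exons, 3464 bases and a coding stretch of 2505 bases. The only transcript of the second identifier, Nnt-206, is a stretch of Nnt-202 without its first 45 and last 80 bases. Reads of that stretch can therefore be assigned to either identifier, which is why the sum of both was used. The joint of exon 6 (chr13:119386579-119386667) and exon 7 (chr13:119381676-119381863) is shown because, by the published exon numbers of the deletion, it is the place where the missing exons would lie. In the genome of C57BL/6J an intron of 4715 bases separates these exons. The sequence has the last 30 bases of exon 6 in lower case and the first 30 of exon 7 in capitals.
Nnt-202 exon 6 to exon 7: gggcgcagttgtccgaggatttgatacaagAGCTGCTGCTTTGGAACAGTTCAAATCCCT
A read from exons that the annotation lacks has no place in a gene table made with it, and how far this lowered the counts of strains with the whole gene was not tested. The deposited values are sums over the gene and do not show which exons were read.

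Library totals were 10.4 to 20.4 M counts (M, 1000000; median 11.7) for the diet mice and 9.41 to 20.6 M (median 12.3) for the panel mice. Nnt itself had between 527.3 and 3014 counts per panel mouse. Summed hepatocyte markers (Alb, Apoa1, Ttr, Tat and Cyp3a11) came to 49802 to 150582 counts per 1000000 (CPM) in the panel and 63523 to 87990 in the diet study, and all 5 were detected, as the liver label asks. Exocrine pancreas markers summed to at most 16.8 CPM. The library labelled BXD65 had a summed level of 4 Y-linked genes of 3.90 CPM, against 118 or more in every other panel library, although all mice are labelled male, and the fold changes, low counts, permutation tests, correlations and list counts of the later BXD set were repeated without it. Leaving it out changed no count of called genes in the redox list or among the neighbours of Nnt, both described further on. In whole liver, a lower level of a transcript cannot be told apart from a smaller share of the cells that hold it.

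Levels are given as CPM scaled with TMM factors. Over the 114 strains Nnt ran from 43.4 CPM in NZB/BlNJ to 261 CPM in BXD18, with a median of 119. C57BL/6J had 54.3 CPM, the 11th lowest value, and 10 strains lay below it. In order of their medians, the families were BXD33-42 (lowest 43.6, median 61.5, highest 112.4 CPM), the later BXD strains (44.2, 68.5 and 149), BXH (55.6, 111.9 and 176), BXD1-32 (78.7, 114 and 261), the 3 C57 relatives (113, 123 and 137), all 30 other inbred strains (43.4, 133 and 203), CXB (148, 150 and 155) and AXB/BXA (129, 152 and 181). The low end, up to 69.2 CPM, held C57BL/6J, NZB/BlNJ, BXH2 and BXD strains above number 32, while every AXB/BXA and CXB strain, also bred from a C57BL/6 parent, had at least 129 CPM.

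**Figure D1:**
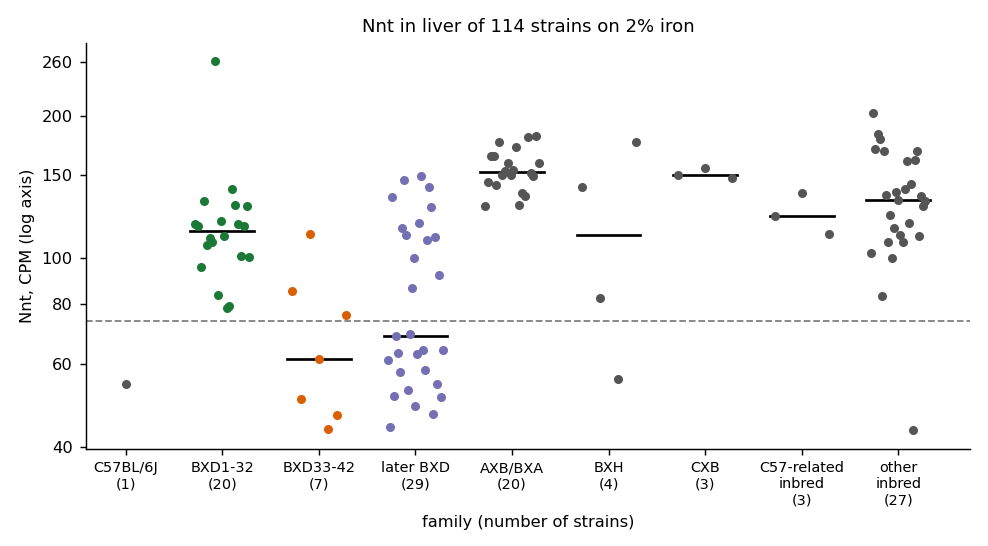
Nnt in CPM (log axis) for each of 114 panel strains, by family; each point is a strain, black bars are medians and the dashed line is the midpoint of C57BL/6J and DBA/2J on the log2 scale. BXD33-42 and the later BXD strains spread across the line, all BXD1-32 and AXB/BXA strains lie above it, and BXD18 stands highest at 261 CPM.

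The parents give the scale of the BXD values. DBA/2J had 100 CPM, 1.84 times the level of C57BL/6J, and A/J, the other parent of the AXB/BXA strains, had 203 CPM, 3.74 times. C3H/HeJ, the parent of BXH, had 136 CPM. Each of these is 1 mouse, so none of the differences between parents has a replicate check. The C57 relatives had 123 (C57BLKS/J), 137 (C57L/J) and 113 CPM (C58/J), from 2.08 to 2.53 times the C57BL/6J mouse.

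On the per-length scale of transcripts per 1000000 (TPM), the panel C57BL/6J mouse had 17.1 TPM and the 114 strains ran from 14.01 to 86.3 with a median of 38.2. The 15 C57BL/6J mice of the diet study had 12.6 to 25.04 TPM with a median of 15.1. The tables of both studies were made separately, so the values are only set side by side. The panel mouse fell within the range of the 15 mice, and 89 of 114 panel strains lay above all 15.

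Apart from the 2 panel mice of 129X1/SvJ (106 and 98.1 CPM), the spread between mice of 1 strain is known only for C57BL/6J. Its standard deviation on the log2 CPM scale was 0.26 within diet groups (15 mice, 5 groups), and 0.16 without the 1 high mouse described further on. Between strains it was 0.15 in AXB/BXA (20 strains), 0.37 in BXD1-32, 0.50 in BXD33-42, 0.57 in the later BXD strains and 0.59 over all 114. The later BXD strains had 2.17 times the SD of the C57BL/6J mice, or 3.62 times without the high mouse. The SD of the AXB/BXA strains was 0.55 times that of the C57BL/6J mice, or 0.92 times without it.

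Tests between families used the strain as the replicate. In the quasi-likelihood test of edgeR across 14149 genes, Nnt was lower in the later BXD strains than in AXB/BXA by a log2 fold change of -0.86 (SE 0.13, adjusted p = 8.06e-07), with means of 84.96 ± 34.3 CPM (SD, n = 29) and 154 ± 15.5 CPM (SD, n = 20). In that comparison 5.80% of genes tested were called at an adjusted p under 0.05, and Nnt ranked 36th by p. It was lower in the later BXD strains than in the 30 other inbred strains by -0.65 (SE 0.12, edgeR adjusted p = 3.67e-05, 15.3% of genes called). The early BXD strains, at 105 ± 40.9 CPM (SD, n = 27), were lower than AXB/BXA by -0.55 (SE 0.13, edgeR adjusted p = 0.00336, 7.10% called). Against the other inbred strains the early BXD strains differed by -0.34 (SE 0.12, edgeR adjusted p = 0.0469, 13.1% called), a call that was lost under 6 of 12 alternatives. AXB/BXA and the other inbred strains, at 133 ± 32.6 CPM (SD, n = 30), differed by 0.21 (SE 0.13, edgeR adjusted p = 0.261, 18.7% called).

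A permutation test of the difference in mean log2 CPM (two-sided, 100000 resamples) stood beside each fit, since a gene with separate levels within a family breaks the model of a single spread. Its p, adjusted by Benjamini-Hochberg over the 9 strain comparisons, was 6e-05 for later BXD against AXB/BXA, early BXD against AXB/BXA, and later BXD against the other inbred strains. The raw p of 2e-05 behind each is the smallest these resamples can give, and it was the same without BXD65 in both comparisons of the later set. The adjusted permutation p was 0.00514 for early BXD and also for AXB/BXA against the other inbred strains. For AXB/BXA against the other inbred strains the permutation test and edgeR therefore fell on different sides of the threshold.

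Within the BXD family the low values began above number 32. All 20 BXD1-32 strains had at least 78.7 CPM: the lowest were BXD24 (78.7; in full BXD24/TyJ-Cep290<rd16>/J, a line that carries the rd16 mutation of Cep290), BXD27 (79.5) and BXD19 (83.7), and the next was BXD12 (95.97 CPM). Among the 7 strains of BXD33-42, BXD39 had 43.6, BXD40 46.8, BXD34 50.6, BXD38 61.5, BXD42 75.8, BXD33 85.2 and BXD36 112.4 CPM. Of these, 5 lay below every BXD1-32 strain and the other 2 lay within that range. Of the 29 later strains, 16 had 44.2 to 69.2 CPM and the other 13 had 86.7 to 149 CPM, with no strain between. The lower of these ranges held the level of C57BL/6J and the upper one that of DBA/2J.

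**Figure D2:**
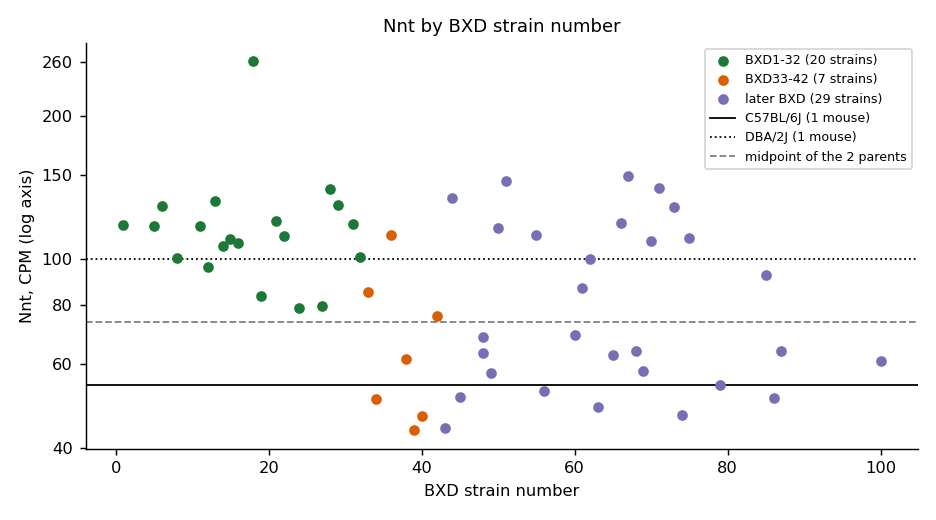
Nnt in CPM (log axis) against BXD strain number for 56 BXD strains, 1 mouse each, coloured by set; lines mark C57BL/6J (54.3 CPM), DBA/2J (100 CPM) and their midpoint on the log2 scale (73.8 CPM). No strain numbered up to 32 falls below the midpoint, and 20 of the higher-numbered strains do.

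Strains were counted as low when they lay below the midpoint of C57BL/6J and DBA/2J on the log2 scale, which is 73.8 CPM. The highest BXD strain below it was BXD60 (69.2 CPM) and the lowest above it BXD42 (75.8 CPM), and 7 BXD strains lay within 0.2 of it on the log2 scale. By this count 0 of 20 BXD1-32 strains were low (Wilson 95% interval 0 to 16.1%), against 4 of 7 in BXD33-42 (57.1%, interval 25.05 to 84.2%) and 16 of 29 in the later set (55.2%, interval 37.5 to 71.6%). Fisher's exact test, two-sided, gave p = 2.51e-05 for the later set against BXD1-32, 0.00199 for BXD33-42 against BXD1-32 and 0.00216 for the later set against all 27 early strains, of which 4 were low. Adjusted by Benjamini-Hochberg over these 3 tests, the values were 7.53e-05, 0.00216 and 0.00216. BXD48 and BXD48a, which are not independent lines, both count among the 16 low strains of the later set. Neither these counts nor the permutation tests were repeated with related strains taken once. Without BXD65 the later set had 15 low strains of 28, and Fisher's exact p against all early strains was 0.00412. The count of 0 in BXD1-32 depended on the cut. At the midpoint of C57BL/6J and A/J (105 CPM), 6 of 20 BXD1-32 strains were low, against 6 of 7 in BXD33-42 and 19 of 29 later strains (Fisher's exact p = 0.0237 and 0.0209). On ENSMUSG00000116207 alone 3 of 20 BXD1-32 strains were low, on ENSMUSG00000025453 alone 1 of 20, and on log2(TPM + 1) 0 of 20.

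The difference in level between the sets was tested too. In the edgeR fit of 56 BXD strains over 14375 genes, BXD33-42 (67.99 ± 24.9 CPM, SD, n = 7) was lower than BXD1-32 (118 ± 37.7 CPM, SD, n = 20) by a log2 fold change of -0.78 (SE 0.23, unadjusted p = 0.00121, adjusted p = 0.703). No gene was called in that comparison (0%) by edgeR or DESeq2, 874 genes had an unadjusted p under 0.05 in edgeR, and Nnt ranked 23rd. The exact permutation test of this 1 gene gave p = 1.96e-04 (4.41e-04 over 9 comparisons). The later set was lower than BXD1-32 by -0.47 (SE 0.14, edgeR adjusted p = 0.178, 0.125% of genes called), with a permutation p of 4.4e-04 (0.00108 without BXD65). It did not differ measurably from BXD33-42 (0.31, SE 0.22, edgeR adjusted p = 0.770, 0.00696% called; exact permutation p = 0.229, and 0.217 without BXD65). Against all early strains it was lower by -0.31 (SE 0.12, edgeR unadjusted p = 0.0132, adjusted p = 0.386, 0.113% called) with a permutation p of 0.0348 (0.0447 without BXD65). This difference rested in part on BXD18, the highest early strain. Without BXD18 it was -0.22 (SE 0.12, edgeR unadjusted p = 0.0584, adjusted p = 0.611), and the permutation test was not repeated without that strain. None of these differences between BXD sets passed the adjustment over all genes, while the permutation p-values take Nnt alone.

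The marker sums of other cell types were compared beside these differences. The 4 Kupffer cell markers (Clec4f, Cd5l, Adgre1 and Vsig4, all detected) summed to 190 to 562 CPM (median 356) in the later BXD strains, 212 to 395.8 (median 288) in BXD33-42, 166 to 541 (median 260) in BXD1-32 and 170 to 507 (median 286) in AXB/BXA. The 3 endothelial markers (Stab2, Clec4g and Pecam1, all detected) had medians of 180, 171, 160 and 194 CPM in the same order. BXD18, the strain with the highest Nnt, had the lowest endothelial sum of the panel, 64.3 CPM. The lowest sums of the later BXD strains and of BXD33-42 were close to it, at 65.5 and 65.6 CPM. In BXD18 the 261 CPM of Nnt was 4.80 times the level of C57BL/6J. The part of these markers in the Nnt levels was not tested. Without BXD18 the log2 fold change of the later against all early BXD strains was -0.22 and that of the later set against BXD1-32 was -0.38.

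Outside the BXD family 2 strains were low besides C57BL/6J, NZB/BlNJ (43.4 CPM) and BXH2 (55.6 CPM). The other BXH strains had 82.4 (BXH14), 141.4 (BXH10) and 176 CPM (BXH8). None of the 20 AXB/BXA, 3 CXB and 3 C57-related strains was low, and 23 of 114 strains were low in all. A count of 0 of 20 leaves room for a share of low AXB/BXA strains of up to 16.1% (Wilson 95% interval). The related strains AXB19, AXB19a and AXB19b each count as a strain in this interval.

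The division of counts between both identifiers differed among mice. ENSMUSG00000025453 took a median of 29.8% of the Nnt counts, from 7.84% in BXH2 to 56.9% in BXD48a. The difference between the BXD sets was not alike on both. On ENSMUSG00000116207 alone the later set was lower than the early set by a log2 fold change of -0.42, and on ENSMUSG00000025453 alone by -0.07 (edgeR adjusted p = 0.244 and 0.933). With ENSMUSG00000025453 alone, 5 of 29 later and 5 of 27 early strains were low (Fisher's exact p = 1), whereas with ENSMUSG00000116207 alone they were 17 and 7 (Fisher's exact p = 0.0169). BXD33-42 was lower than BXD1-32 on each identifier, by -0.82 and -0.77. Since Nnt-206 lies within Nnt-202, the division rests in part on the assignment of shared reads. ENSMUSG00000025453 has 5 annotated transcripts. Of these, Nnt-201, Nnt-203 and the retained-intron transcripts Nnt-204 and Nnt-205 do not lie within Nnt-202. Their part in the division was not tested, and only the sum was read as the level of the gene. The contrast of the later set with the other inbred strains was also carried by ENSMUSG00000116207 (-0.84, edgeR adjusted p = 4.19e-06) and not by ENSMUSG00000025453 alone (-0.22, edgeR adjusted p = 0.287).

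**Figure D3:**
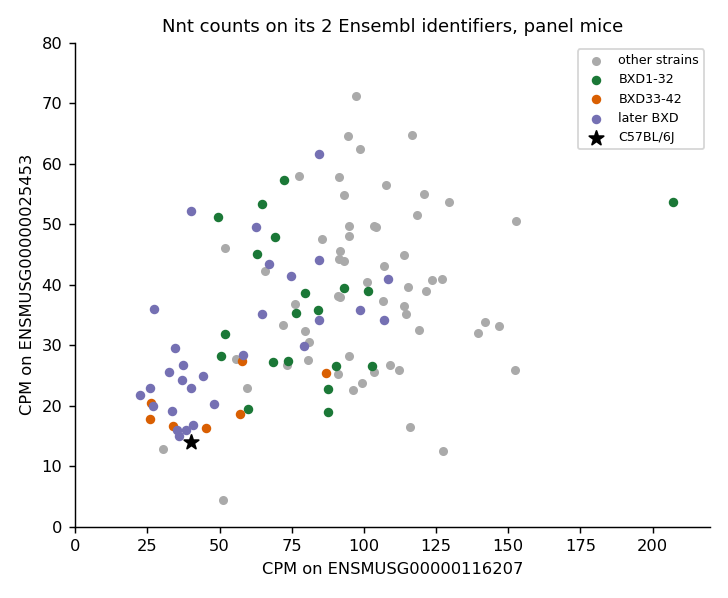
CPM of Nnt on its identifiers ENSMUSG00000116207 (horizontal axis) and ENSMUSG00000025453 (vertical axis), 1 point per panel mouse, 115 mice, coloured by BXD set; the star is C57BL/6J. Most mice have more counts on ENSMUSG00000116207. The BXD33-42 and later BXD strains near C57BL/6J lie toward the low end of the horizontal axis. On the vertical axis they spread among other strains, and no gap sets them apart on either axis.

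In the diet study, the question was whether iron or fibre changes Nnt within C57BL/6J. On chow the 3 mice had 45.6, 44.1 and 48.7 CPM, on 50 ppm iron 47.5, 44.1 and 49.7, on 500 ppm 45.5, 80.3 and 44.2, on 2% iron 47.3, 40.5 and 41.7, and on 2% iron with cellulose 58.5, 72.7 and 48.5 CPM. Apart from 1 mouse on 500 ppm, the mice without cellulose lay between 40.5 and 49.7 CPM on every diet. That mouse, replicate 2, also had the deepest library of the study (20.4 M counts). All 3 mice on the cellulose diet lay above all 3 on the 2% diet without it.

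**Figure D4:**
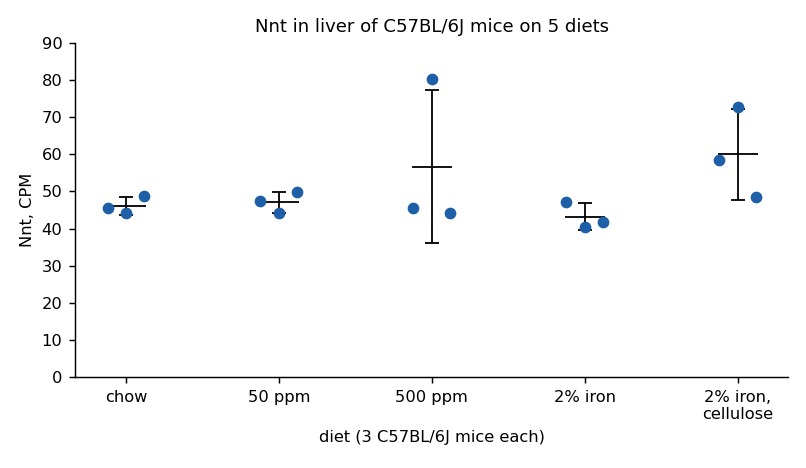
Nnt in CPM for 15 C57BL/6J mice, 3 on each of 5 diets; points are mice, horizontal bars are means and whiskers are SD. All but 1 mouse of the first 4 groups lie between 40.5 and 49.7 CPM, the exception being a mouse on 500 ppm at 80.3 CPM, and the cellulose group spans 48.5 to 72.7 CPM.

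No diet comparison of Nnt passed the threshold in edgeR, where 13560 genes were tested. From 50 ppm (47.1 ± 2.83 CPM, SD, n = 3) to 2% iron (43.1 ± 3.62 CPM, SD, n = 3) the log2 fold change was -0.12 (SE 0.20, edgeR adjusted p = 0.723), and 15.7% of genes tested were called in that contrast. Against chow (46.1 ± 2.36 CPM, SD, n = 3) it was -0.09 (SE 0.20, edgeR adjusted p = 0.780, 22.8% called). Chow against 50 ppm gave -0.03 (SE 0.20, edgeR adjusted p = 0.982, 0.391% called). The 500 ppm group (56.7 ± 20.5 CPM, SD, n = 3) differed from 50 ppm by 0.26 (SE 0.20, edgeR adjusted p = 0.9999). No gene was called in this contrast (0%) by edgeR, 429 had an unadjusted p under 0.05, and DESeq2 called 2. The 2% diet differed from 500 ppm by -0.38 (SE 0.20, edgeR adjusted p = 0.232, 11.3% called). Without replicate 2 of the 500 ppm group these became -0.08 and -0.04, so both rested on that mouse.

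The largest diet difference of Nnt was that between the 2% diets with and without cellulose. The cellulose group had 59.9 ± 12.2 CPM (SD, n = 3), and the log2 fold change was 0.47 (SE 0.20, edgeR unadjusted p = 0.0319, adjusted p = 0.339). The groups did not overlap, and 0.0811% of genes (11) were called in this contrast. That count was not stable: DESeq2 called 224 genes, and edgeR called 4, 0 and 224 without replicate 1, 2 and 3 of the cellulose group and 54 without replicate 2 of the 500 ppm group. Leaving out each mouse of the study in turn gave 0.30 to 0.60. Summed Kupffer markers were 334.3 to 517.3 CPM in the cellulose group and 356 to 359 in the group without it, against 77.1 to 160 in the other 3 groups, and their part in the Nnt values was not tested. The spread of 3 mice per group leaves room for changes of Nnt below the sizes these tests can call, and that size was not tested for Nnt. On simulated data for 2% iron against 50 ppm, 59 of 98 genes changed by a log2 of 1 and 22 of 100 changed by 0.5 were recovered. These genes were drawn at random over all levels, each with its own spread, so the rates are not those of Nnt. Of 13368 genes fitted there, a smaller share was changed than the 15.7% called between the real groups.

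Nnt is one of several sources of mitochondrial and cytosolic NADPH, and 30 other genes of that network were read beside it, all of them tested. From 50 ppm to 2% iron, 8 of the 30 changed (26.7%, against 15.7% of all genes), 4 upward (8.51% of all genes) and 4 downward (7.18%), with a median log2 fold change of -0.02 against 0.01 over all genes. The folate enzyme gene Mthfd2 rose by 1.87 (SE 0.50, edgeR adjusted p = 0.0224), the mitochondrial malic enzyme gene Me2 by 1.35 (SE 0.29, edgeR adjusted p = 0.00761), the pentose phosphate gene Pgd by 1.07 and the uncoupling protein gene Ucp2 by 0.95 on the log2 scale. Nadk2, whose product makes mitochondrial NADP+, fell by 0.68 (SE 0.12, edgeR adjusted p = 0.00319), catalase (Cat) fell by 0.59, the peroxidase gene Gpx1 fell by 0.44 and the mitochondrial superoxide dismutase gene Sod2 fell by 0.30. Against chow 14 of 30 changed, 5 upward (11.9% of all genes) and 9 downward (10.9%). Against 500 ppm 5 of 30 changed, 1 upward (6.59% of all genes) and 4 downward (4.75%). No gene of the list was called by edgeR between chow and 50 ppm (0.391% of all genes), 500 and 50 ppm (0%), or the 2% diets (0.0811%). DESeq2 called 147, 2 and 224 genes in these 3 contrasts. Nadk2, Cat and Sod2 fell and Ucp2 rose on 2% iron against each of the 3 other diets without cellulose. Me2 did not pass against 500 ppm (0.86, edgeR adjusted p = 0.0566), nor did Mthfd2 (0.93, 0.194), Pgd (0.84, 0.0628) and Gpx1 (-0.33, 0.149). The summed Kupffer markers moved in the same mice, from 83.98 to 140 CPM on 50 ppm, 92.8 to 122 on chow and 77.1 to 160 on 500 ppm to 356 to 359 CPM on 2% iron. Their part in the changes of the redox genes was not tested.

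Across strains, none of the 30 genes was called by edgeR between the later and the early set (0 of 30, median 0.02 against -0.01 over all genes), where 0.113% of all genes were called. None was called between any pair of the 3 BXD sets either, where the shares of all genes were 0%, 0.125% and 0.00696%. With so few genes called at all, these counts do not set the list apart from other genes. The list's counts were 1 of 30 for later BXD against AXB/BXA (Ucp2, higher by 0.58; 5.80% of all genes) and 3 of 30 for early BXD against AXB/BXA (Idh2, Gpx1 and Txnrd2, all lower, by -0.32, -0.32 and -0.24; 7.10% of all genes). Both shares of the list were near those of all genes. Against the other inbred strains, 10 of 30 were called in the later BXD strains, 4 higher (6.06% of all genes) and 6 lower (9.27%), and 5 of 30 in the early ones (13.1% of all genes). In AXB/BXA against the same strains 11 of 30 were called, 6 higher and 5 lower (18.7% of all genes). Mthfd2 was lower than in the other inbred strains by -1.27 in the later BXD strains, -1.06 in the early ones and -1.57 in AXB/BXA. Gclm, the regulatory subunit gene of glutathione synthesis, was lower by -0.41, -0.45 and -0.23 in the same order. Nnt in AXB/BXA differed from the other inbred strains by 0.21, which edgeR did not call, with an adjusted permutation p of 0.00514. A relation of Mthfd2 or Gclm to Nnt was not tested. In the C57BL/6J panel mouse, the mitochondrial NADP-dependent isocitrate dehydrogenase gene Idh2 had 87.4 CPM, 61st from the lowest of 114 strains. The malic enzyme gene Me3 had 6.87 CPM, also 61st. Me2 (8.09 CPM, 111th) and G6pdx (15.2 CPM, 102nd) lay near the top. Gpx4 (115 CPM, 3rd), Sod2 (121 CPM, 11th) and Txn2 (86.8 CPM, 11th) lay near the bottom. These are ranks of 1 mouse, whose summed Kupffer markers were 511 CPM, against a panel median of 287 and a highest value of 583. A relation of the ranks to these markers or to Nnt was not tested.

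The genes beside Nnt were read to see whether the level of Nnt moved with its neighbourhood. Of 23 protein-coding genes that start within 1 Mb of its start, 7 were tested between families, all upstream. The nearest in order were Paip1 (19.6 kb), 4833420G17Rik (53.8 kb) and Tmem267 (79.04 kb), and the only gene downstream, the growth factor gene Fgf10 (739 kb), had at most 0.816 CPM. Over the 29 later BXD strains Spearman's rho with Nnt was -0.64 for the zinc finger gene Zfp131, -0.63 for Tmem267, -0.61 for 4833420G17Rik and -0.30 for Paip1, and without BXD65 it was -0.69, -0.64, -0.62 and -0.30. Over the 27 early strains the values were -0.13, 0.01, 0.00 and -0.12, and over the 30 other inbred strains 0.26, 0.64, 0.52 and 0.36. These are descriptions over strains that share chromosome segments, and the difference between sets was not tested. In the parents, C57BL/6J and DBA/2J, Zfp131 had 12.1 and 4.55 CPM, Tmem267 5.39 and 1.80, 4833420G17Rik 37.1 and 19.3, and Paip1 95.3 and 86.2. For these genes the order was opposite to that of Nnt. The other tested neighbours had the order of Nnt: Hmgcs1 306 and 470 CPM, Nim1k 0.87 and 2.75, and Gm21188 1.74 and 2.94. Their rho with Nnt over the later BXD strains was -0.24, 0.10 and -0.18. None of the 7 neighbours was called by edgeR between the later and the early BXD strains, where 0.113% of all genes were. Tmem267 was lower than in AXB/BXA by -1.41 in the later set (edgeR adjusted p = 1.70e-04) and by -1.25 in the early set (edgeR adjusted p = 0.00130), and it was lower in the later set than in the other inbred strains by -0.80 (edgeR adjusted p = 0.0209). The predicted gene Gm21188, 643 kb upstream, was higher in AXB/BXA than in the other inbred strains by 0.71 (edgeR adjusted p = 0.0250). In the diet study 8 neighbours were tested, and the only call was that of Gm21188 on 2% iron against chow (3.47, edgeR adjusted p = 0.00516, 22.8% of all genes).

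**Figure D5:**
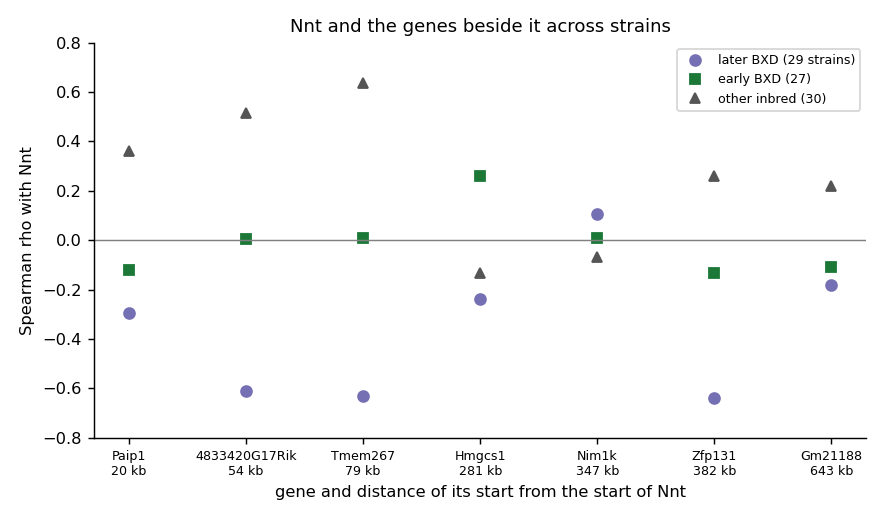
Spearman's rho between the log2 levels of Nnt and each of the 7 tested neighbours, ordered by the distance of their starts from the start of Nnt (kb), over 29 later BXD, 27 early BXD and 30 other inbred strains. Zfp131, Tmem267 and 4833420G17Rik lie between -0.64 and -0.61 in the later BXD strains and between -0.13 and 0.01 in the early ones.

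The genes whose levels were most like those of Nnt were found by Spearman's rho among 12402 protein-coding genes whose mean reached 1 CPM. Over 114 strains the highest were Nudcd3 (0.61), Acad10 (0.59), a mitochondrial acyl-CoA dehydrogenase family gene, Gpd1l (0.55) and Olfr1388 (0.53). The lowest were Tmem268 (-0.53), Crlf2 (-0.52) and 1810037I17Rik (-0.51). Families differ in many genes at once, and within the 29 later BXD strains the first 4 of these genes had values of 0.21, 0.12, 0.10 and 0.04. Over the later BXD strains alone the highest were Akirin2 (0.70), Cyp4f15 (0.63), Gm49342 (0.59), Ppp1r3g (0.59) and Gcat (0.58, on ENSMUSG00000006378, one of a pair of overlapping identifiers of that symbol), and the lowest were Pir (-0.78), Eif4e (-0.66) and Prkcq (-0.65). Without BXD65 these 8 values were 0.57 to 0.70 and -0.79 to -0.65. Pir, an iron-binding nuclear protein gene on the X chromosome, had a rho of 0.11 in the early BXD strains and -0.25 in the other inbred strains. In the redox list the lowest values over the later BXD strains were those of the thioredoxin reductase gene Txnrd1 (-0.58) and the glutathione reductase gene Gsr (-0.48). With so many genes compared over 29 strains, 74 genes passed 0.5 in size (88 without BXD65), and values of this size occurred elsewhere too (178 genes in the early BXD strains).

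For scale, the genes that differed most between the later and the early BXD strains were others than Nnt, which ranked 482nd by p of 14149. Among the called protein-coding genes that reached that mean, the largest falls were those of the urinary protein genes Mup11 (-4.38), Mup19 (-4.06) and Mup15 (-3.86), near-identical copies whose counts are uncertain, and the largest rises were Hoxb1 (2.66), Gm16867 (2.11) and Entpd4 (0.36).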

How the data were processed

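Liver RNA libraries were made with a stranded mRNA kit, per the labels' protocols. The authors deposited estimated counts per gene, not normalized as judged from the values, and TPM of the same genes. For these, kallisto 0.46 and mm10 are named in the submitters' processing notes. The panel tables are named for Ensembl release 97. Identifiers were given symbols from GENCODE M21 (GRCm38), matching 35612 of 35711 in the panel and 34845 of 35274 in the diet table. Counts were rounded, and the design, which assumed a single identifier of Nnt, was applied to the sum of both. The quasi-likelihood test of edgeR 4.0.16 in R 4.3.3 was used with TMM factors, filterByExpr and Benjamini-Hochberg adjustment over all genes tested, a gene being called under 0.05. One fit held the 5 diet groups, another 4 strain families (129X1/SvJ summed over its mice, BXH, CXB and C57BL/6J left out), and the last the 3 BXD sets. The studies were never pooled. Log2 CPM used a prior count of 2. Permutation and Fisher tests were run in scipy 1.17.1 and were two-sided, and figures were drawn with matplotlib 3.10.9.

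The gene, the lists and the comparisons were chosen with earlier results of these data known. Besides Nnt, the genes named are those called in the redox list, neighbours within 1 Mb (the 3 nearest on each side, where as many were tested, and those called), the 5 highest and 3 lowest by rho (1 of which is not reported here), and the 3 largest changes each way between BXD sets. Zfp131, Hmgcs1, Nim1k, BXD65 and single genes of the redox list in the panel were picked after their values were seen. Alternatives were RLE factors, other filters, DESeq2 1.42.0, limma 3.58.1 on log2(TPM + 1) and log2(TPM + 0.1), the compared groups alone, substrains once, each mouse of the diet study or BXD65 left out, and other midpoints. Leaving out BXD18, using each identifier alone, leaving BXD65 out of the permutation tests, correlations and list counts, and the alternatives for BXD33-42 and for the later set against BXD1-32 in the count of low strains were added after the data were seen. On simulated data for the later against the early BXD strains, 86 of 99 genes changed by a log2 of 1 and 71 of 100 changed by 0.5 were recovered. Those genes were drawn at random and simulated with a single spread each, without separate levels within a family, so the rates are not those of Nnt. The labels name no shared cultures or litters; each library is 1 mouse. The Wilson intervals are over strains and describe how many of a set's strains were low, not the reading of a single library.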

Additional observations from a re-analysis of the deposited data

How the results depend on the processing

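Of 258 alternative values, 241 kept their direction and their side of the threshold. In the diet study, 2% iron against chow turned from -0.09 to 0.027 with limma on log2(TPM + 1) and 0.028 on log2(TPM + 0.1), and no alternative called Nnt. With each mouse left out in turn, the log2 fold changes ran from -0.21 to -0.08 for 2% iron against 50 ppm, -0.082 to 0.41 for 500 against 50 ppm, -0.54 to -0.04 for 2% iron against 500 ppm, -0.17 to -0.05 for 2% iron against chow, -0.081 to 0.013 for chow against 50 ppm and 0.30 to 0.60 for cellulose. Nnt in early BXD against the other inbred strains lost its call with no filter (-0.34, edgeR adjusted p = 0.0677), limma on log2(TPM + 1) (-0.36, 0.0519) and log2(TPM + 0.1) (-0.37, 0.0523), the compared groups alone (-0.34, 0.0667), substrains once (-0.32, 0.0680) and ENSMUSG00000025453 alone (-0.15, 0.526), over an adjusted range of 0.00773 to 0.526. Later BXD against the other inbred strains lost it on ENSMUSG00000025453 alone (-0.22, 0.287). The share of low strains in the later minus the early BXD set, 40.4 percentage points, was 21.1 with the midpoint of C57BL/6J and A/J (19 of 29 and 12 of 27, Fisher's exact p = 0.178), 3.70 when split at the largest gap between BXD strains, which sets only BXD18 apart (exact p = 0.482), and -1.28 on ENSMUSG00000025453 alone. At the largest gap, BXD33-42 and the later set each exceeded BXD1-32 by 5 points, and on ENSMUSG00000025453 alone the later set exceeded it by 12.2 points (exact p = 0.379). The cause was not tested. No paired analysis was possible because the labels carry no replicate numbers that groups share.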

Other observations

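The 2 mice of 129X1/SvJ, the only strain of the panel with more than 1 mouse, had 106 and 98.1 CPM of Nnt, and ENSMUSG00000025453 took 31.7% of the Nnt counts in one and 47.1% in the other. The sum of both identifiers thus differed less between these mice than the division of counts between them did.

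The transcript length implied by the deposited counts and TPM, scaled on genes with 1 annotated transcript, was 3152 to 3388 bases (median 3308) for Nnt in the 115 panel mice and 3174 to 3308 (median 3221) in the 15 diet mice. In the later BXD strains the median was 3249 and in AXB/BXA 3328. This length follows the mixture of annotated transcripts to which reads were assigned and does not measure the RNA itself.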
